A study of Mus musculus with 12 samples.

Results

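The genes described here are 8 transcripts best known from mast cells and granulocytes, namely the tryptase genes Tpsab1 and Tpsb2, Cpa3, Hdc, Ms4a2, Fcer1a, Gata2 and Ccr3. They were chosen by symbol around Tpsab1, which had already been seen to be lower in LAIR-1- than in LAIR-1+ cells, so the values of that comparison are given as a description: no p-value is printed for the 8 genes there, and nothing is concluded from their calls. All 8 are among the 21361 genes listed for the sorted cells, and 4 of them, Tpsab1, Cpa3, Hdc and Ccr3, are among the 18601 listed for the WT and KO cells. The other 4 are not listed there. In all, 22588 genes are listed across the 2 deposits.

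The libraries hold RNA of ILC2s, group 2 innate lymphoid cells, which lack antigen receptors and make type 2 cytokines. Their source was lung tissue of C57BL/6 mice at an age of 8 weeks. Every group shared the same exposure: recombinant IL-33 was given intranasally 3 times at 0.5 µg per mouse, and the cells were cultured with IL-2 (10 ng/mL) and IL-7 (10 ng/mL) for 24 hours after the sort. One table holds 3 WT libraries (9, 10 and 11) and 3 LAIR-1 KO libraries (13, 14 and 15). LAIR-1 is a collagen-binding receptor that dampens immune cells. The other holds WT cells sorted by surface LAIR-1, with 3 LAIR-1+ libraries (1, 2 and 3) and 3 LAIR-1- libraries (7, 8 and 10). How the knockout was made is not stated in the labels, nor is it said whether libraries came from separate or pooled mice, so the spread between libraries may be partly technical.

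Mast cells store proteases bound to the proteoglycan serglycin in granules, together with histamine. Antigen that cross-links IgE on the receptor FcεRI makes them release these granules, and basophils carry the same receptor. Mast cells and ILC2s both carry the IL-33 receptor.

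Estimated counts per library summed to 18061470 to 20878649 in the WT and KO cells and to 18885002 to 28290487 in the sorted cells. Levels are given in CPM, counts scaled to the library total, after TMM scaling, and fold changes as log2 of LAIR-1- over LAIR-1+, or of KO over WT. All 13 ILC2 markers examined were present in both tables; Gata3 was at 1268 ± 22.6 CPM in LAIR-1+ and 1142 ± 47.3 CPM in LAIR-1- cells (SD, n = 3). Lair1 itself was at 11.1 ± 2.07 CPM in LAIR-1+ and 1.21 ± 0.692 CPM in LAIR-1- cells, and edgeR's quasi-likelihood test gave a log2 fold change of -3.14 ± 0.34 (SE, adjusted p = 0.000346). In the knockout table the Lair1 counts were 70, 200 and 153 in WT 9, 10 and 11 and 9, 0 and 67 in KO 13, 14 and 15, so the library labelled KO 15 came close to WT 9, and the log2 fold change of -2.59 ± 1.47 did not pass in edgeR (adjusted p = 0.715). LAIR-1+ 2 stood apart from the other sorted libraries for these genes: it was the highest library for 6 of the 8, while 17.9% of all 14261 tested genes were highest there. The sorted fold changes of the 8 genes are therefore also given without it. For those 6 genes, leaving out their highest library lowers the LAIR-1+ mean. A rise of their fold change is therefore fixed by that choice, and only its size is described.

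The regions upstream of the genes are shown because GATA factors, of which Gata2 is a member of the set, bind motifs that can be looked for there. RefSeq promoters of build GRCm38.p6, 250 bases before to 50 after the transcript start, were found for 6 of the 8 genes. They were searched on both strands for AGATAA and TGATAA. A match stood in 4 of the 6, in Cpa3, Ms4a2, Fcer1a and Ccr3, and in 18.6% of all 32851 promoters of the same length. Neither Hdc nor either of the 2 Gata2 starts held one. The first base of the match lay 46 bases before the start in Cpa3, 92 in Fcer1a and 30 in Ccr3. Ms4a2 held 3 matches, at 224, 37 and 11 bases before the start, and 3.26% of all promoters held 2 or more. In the sequences, read 5′ to 3′ along the gene's own strand, capitals mark the matches, with TTATCT being AGATAA on the other strand.
Cpa3 (chr3:20242132-20242431, minus strand): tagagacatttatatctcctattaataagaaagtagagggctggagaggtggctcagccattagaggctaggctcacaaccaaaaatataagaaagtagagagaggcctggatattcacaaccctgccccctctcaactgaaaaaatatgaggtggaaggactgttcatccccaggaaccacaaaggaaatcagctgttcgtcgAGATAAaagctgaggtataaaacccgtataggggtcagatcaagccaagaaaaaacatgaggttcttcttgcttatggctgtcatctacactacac
Ms4a2 (chr19:11623670-11623969, minus strand): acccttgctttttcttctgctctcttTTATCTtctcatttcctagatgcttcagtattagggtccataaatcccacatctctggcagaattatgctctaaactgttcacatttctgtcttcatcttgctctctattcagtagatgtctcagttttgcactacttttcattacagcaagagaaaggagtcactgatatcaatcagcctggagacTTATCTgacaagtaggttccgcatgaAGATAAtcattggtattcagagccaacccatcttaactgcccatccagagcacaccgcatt
Fcer1a (chr1:173227180-173227479, minus strand): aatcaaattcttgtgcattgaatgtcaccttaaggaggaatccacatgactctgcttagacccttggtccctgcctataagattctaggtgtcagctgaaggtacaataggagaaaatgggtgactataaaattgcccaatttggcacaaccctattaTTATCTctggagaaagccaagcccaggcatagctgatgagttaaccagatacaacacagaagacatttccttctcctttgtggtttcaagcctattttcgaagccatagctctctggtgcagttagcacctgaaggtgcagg
Ccr3 (chr9:124021721-124022020, plus strand): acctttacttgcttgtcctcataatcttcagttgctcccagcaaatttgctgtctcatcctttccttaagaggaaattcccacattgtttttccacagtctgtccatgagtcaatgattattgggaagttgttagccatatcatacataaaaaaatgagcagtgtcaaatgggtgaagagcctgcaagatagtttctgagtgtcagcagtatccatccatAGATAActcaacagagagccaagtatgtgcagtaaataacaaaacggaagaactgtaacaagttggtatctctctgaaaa

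A match of these letters is a description of the sequence and no evidence of binding in these cells. The genes that held one did not share a direction: Cpa3, Ms4a2 and Fcer1a had lower means in LAIR-1- cells, and Ccr3 had a higher one.

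Of the 8 genes, 7 had a lower mean in LAIR-1- than in LAIR-1+ cells, and Ccr3 had a higher one. The differences were of unequal size. Tpsab1 and Hdc were lower by 1.94 or more on the log2 scale, the other 5 by 0.73 to 1.11, and the groups overlapped for Tpsb2, Ms4a2, Fcer1a and Gata2. All 8 passed the filter on low counts. At an adjusted p under 0.05 in edgeR, 3 of the 8 were called, Tpsab1 and Hdc lower and Ccr3 higher, against 4.01% of all tested genes in either direction, 2.71% lower and 1.3% higher. Since the set was built around this comparison, nothing is read from that count. In bulk RNA, fewer cells of a type and less RNA per cell cannot be told apart. The libraries did not overlap between groups for Tpsab1, Cpa3, Hdc and Ccr3, 4 of the 8, against 21% of all tested genes in either direction, 11.3% lower and 9.64% higher.

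**Figure D1:**
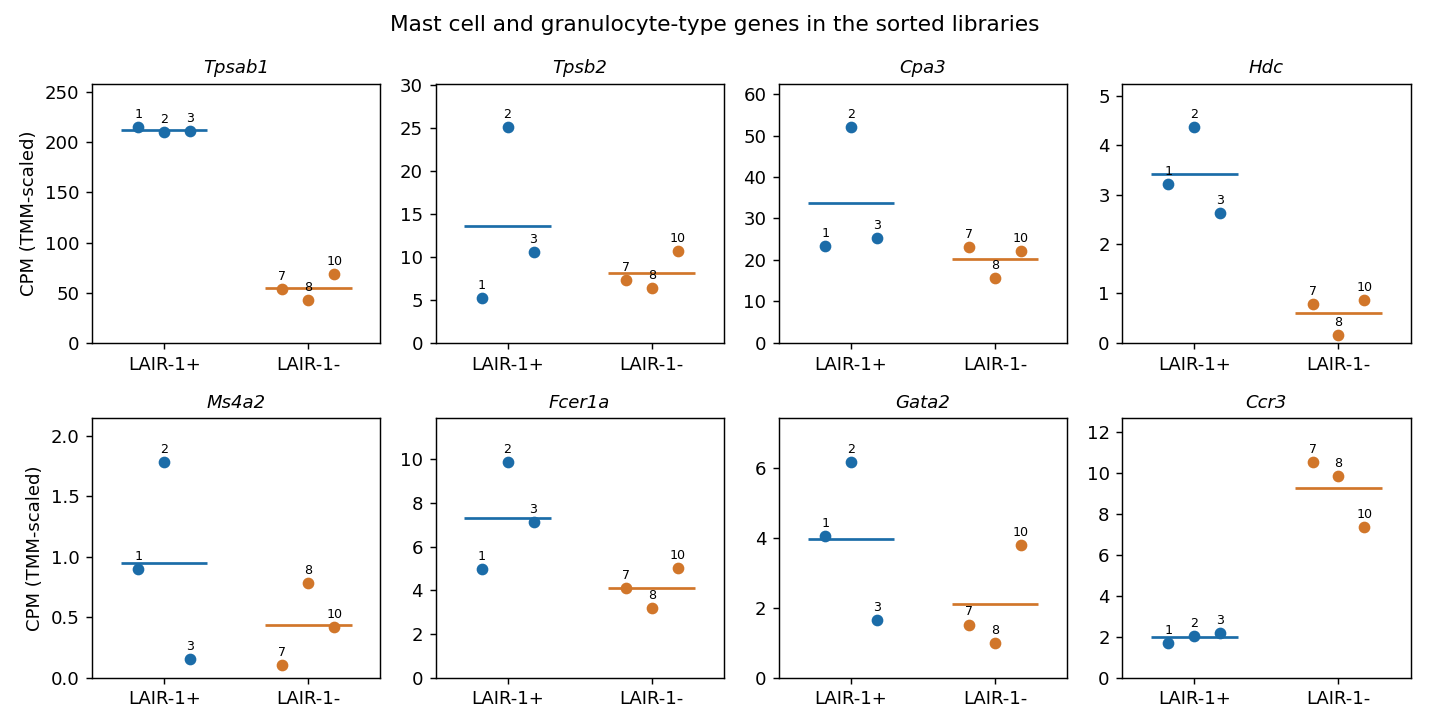
Each panel plots 1 gene in CPM after TMM scaling (vertical axis, from 0) for the 3 LAIR-1+ and 3 LAIR-1- libraries, numbered as in the labels, with a bar at each group mean. Tpsab1 sits between 210.5 and 215 CPM in LAIR-1+ and between 43.0 and 68.8 CPM in LAIR-1- libraries, Ccr3 is ordered the other way, and LAIR-1+ 2 is the top point for the other 6 genes.

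Tpsab1 is 1 of the tryptase genes, named for trypsin-like serine proteases of mast cell granules. It was at 215, 210.5 and 211 CPM in LAIR-1+ 1, 2 and 3 and at 53.5, 43.0 and 68.8 CPM in LAIR-1- 7, 8 and 10. The 3 LAIR-1+ libraries lay within 1.02-fold of each other, and every LAIR-1- library was far below them. The group means of 212 ± 2.53 and 55.1 ± 12.99 CPM (SD, n = 3) gave a log2 difference of -1.94 ± 0.13 (SE). Without LAIR-1+ 2 it was -1.95 ± 0.15. Tpsab1 lies on the minus strand of chromosome 17 (25343245 to 25345562, mm10). The deposited table classes it as protein coding, whereas RefSeq classes it as a transcribed pseudogene in the C57BL/6J genome. Whether its RNA yields a protease in these cells was not tested.

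Tpsb2, the neighbouring tryptase gene on the plus strand (25366305 to 25369098), did not follow Tpsab1 library by library. It was at 5.25, 25.2 and 10.5 CPM in LAIR-1+ 1, 2 and 3 and at 7.31, 6.35 and 10.7 CPM in LAIR-1- 7, 8 and 10. Only LAIR-1+ 2 was above all LAIR-1- libraries, and LAIR-1+ 1 was below all of them. The log2 fold change was -0.75 ± 0.43 with all libraries and 0.040 ± 0.31 without LAIR-1+ 2, a change of direction.

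How far reads of the tryptase genes could be exchanged was checked on their sequences. The coding sequences aligned over 787 bases with 80.1% identity, and no window of 50 bases was shared by any pair of their annotated transcripts in GENCODE M21. The longest shared run of the best aligned pair was 39 bases. It is shown in capitals with 21 bases of coding sequence on each side, joined across an intron in both genes, because a read inside the capitals alone could come from either gene.
Tpsab1 (chr17:25344895-25345108, minus strand, GRCm38): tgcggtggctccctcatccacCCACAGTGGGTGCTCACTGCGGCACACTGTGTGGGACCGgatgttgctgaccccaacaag
Tpsb2 (chr17:25366867-25367067, plus strand, GRCm38): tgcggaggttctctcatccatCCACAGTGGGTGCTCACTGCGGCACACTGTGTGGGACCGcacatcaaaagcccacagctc

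The ratio of Tpsab1 to Tpsb2 counts was 41.0, 8.36 and 20.0 in LAIR-1+ 1, 2 and 3 and 7.32, 6.78 and 6.45 in LAIR-1- 7, 8 and 10. It was higher in every LAIR-1+ library and varied much more among them than among the LAIR-1- libraries. When the counts of both genes were added, the summed tryptase level was 220, 236 and 222 CPM against 60.8, 49.3 and 79.5 CPM, a log2 fold change of -1.83 ± 0.14 (SE) that moved between -2.04 and -1.69 with any 1 library left out. Within 100 kb of the tryptase genes, Baiap3 did not pass the filter on low counts, and Gm5430 did not pass the test (log2 fold change 0.68 ± 0.44, edgeR adjusted p = 0.523).

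Cpa3 encodes the carboxypeptidase of mast cell granules (chromosome 3, 20215620 to 20242181, minus strand). It was at 23.5, 52.1 and 25.4 CPM in LAIR-1+ 1, 2 and 3 and at 23.1, 15.6 and 22.2 CPM in LAIR-1- 7, 8 and 10. The groups did not overlap, but LAIR-1+ 1 and 3 lay just above LAIR-1- 7 and 10, and LAIR-1+ 2 carried most of the distance. The log2 fold change of -0.73 ± 0.27 became -0.27 ± 0.17 without it.

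Hdc encodes histidine decarboxylase, the enzyme that makes histamine (chromosome 2, 126593667 to 126619299, minus strand). Its counts were low, at 68, 110 and 68 in LAIR-1+ 1, 2 and 3 and 15, 3 and 25 in LAIR-1- 7, 8 and 10, which gave 3.22, 4.37 and 2.63 CPM against 0.788, 0.157 and 0.870 CPM. All LAIR-1+ libraries were above all LAIR-1- libraries. The log2 fold change was -2.45 ± 0.49, and -2.23 ± 0.56 without LAIR-1+ 2, where it did not reach the call threshold. Histamine's other machinery had few measurable genes: of 5 listed genes for its storage, breakdown and receptors 2 were tested and neither passed in edgeR, with 0 at an unadjusted p under 0.05 and 0 called by DESeq2 or limma-voom. Slc18a2, the transporter that loads histamine into granules, differed by -0.03 ± 0.22 on the log2 scale.

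The IgE receptor genes were low in both fractions. Fcer1a, the IgE-binding α chain (chromosome 1, 173221284 to 173227214, minus strand), was at 4.97, 9.89 and 7.13 CPM in LAIR-1+ 1, 2 and 3 and at 4.10, 3.199 and 5.01 CPM in LAIR-1- 7, 8 and 10. The groups crossed at LAIR-1+ 1 and LAIR-1- 10, and the log2 fold change was -0.83 ± 0.27, or -0.56 ± 0.28 without LAIR-1+ 2. Ms4a2, the β chain (chromosome 19, 11615523 to 11623719, minus strand), had 19, 45 and 4 counts in LAIR-1+ and 2, 15 and 12 counts in LAIR-1- libraries after rounding. These counts overlapped widely, and the log2 fold change of -1.11 ± 0.81, or -0.24 ± 0.92 without LAIR-1+ 2, had a wide error at this depth. The shared γ chain Fcer1g, also used by other Fc receptors, was 5.17 ± 0.643 against 3.196 ± 0.342 CPM (log2 fold change -0.70 ± 0.23, edgeR adjusted p = 0.144).

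Gata2 encodes a transcription factor needed for mast cell and basophil development (chromosome 6, 88193891 to 88207032, plus strand). It was at 4.07, 6.19 and 1.67 CPM in LAIR-1+ 1, 2 and 3 and at 1.52, 0.996 and 3.79 CPM in LAIR-1- 7, 8 and 10. LAIR-1+ 3 fell among the LAIR-1- libraries and LAIR-1- 10 among the LAIR-1+ ones. The log2 fold change was -0.88 ± 0.52, and -0.41 ± 0.56 without LAIR-1+ 2. Of 11 listed partners and related factors 9 were tested and none passed in edgeR. An unadjusted edgeR p under 0.05 was found for 4 of the 9, against 15.4% of all tested genes. DESeq2 called 1 and limma-voom 0.

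Ccr3, the eotaxin receptor of eosinophils, basophils and some mast cells (chromosome 9, 124021972 to 124031689, plus strand), was the member of the set that was higher in LAIR-1- cells. It was at 1.70, 2.03 and 2.169 CPM in LAIR-1+ 1, 2 and 3 and at 10.6, 9.86 and 7.37 CPM in LAIR-1- 7, 8 and 10. Every LAIR-1- library was above every LAIR-1+ library, and neither group varied by more than 1.43-fold within itself. The group means were 1.97 ± 0.239 and 9.27 ± 1.68 CPM, a log2 fold change of 2.23 ± 0.23 that was 2.24 ± 0.27 without LAIR-1+ 2. Among CCR3 ligands and related chemokine receptors, Ccr4 (0.82 ± 0.09, edgeR adjusted p = 0.000358) was higher while Ccr2 (-0.39 ± 0.08, adjusted p = 0.0153) was lower in LAIR-1- cells. The call of Ccr2 ended without LAIR-1+ 2 (adjusted p = 0.0579) and without LAIR-1- 7 (0.0826). Ccr4 was called in each of the 6 fits with 1 library left out.

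**Figure D2:**
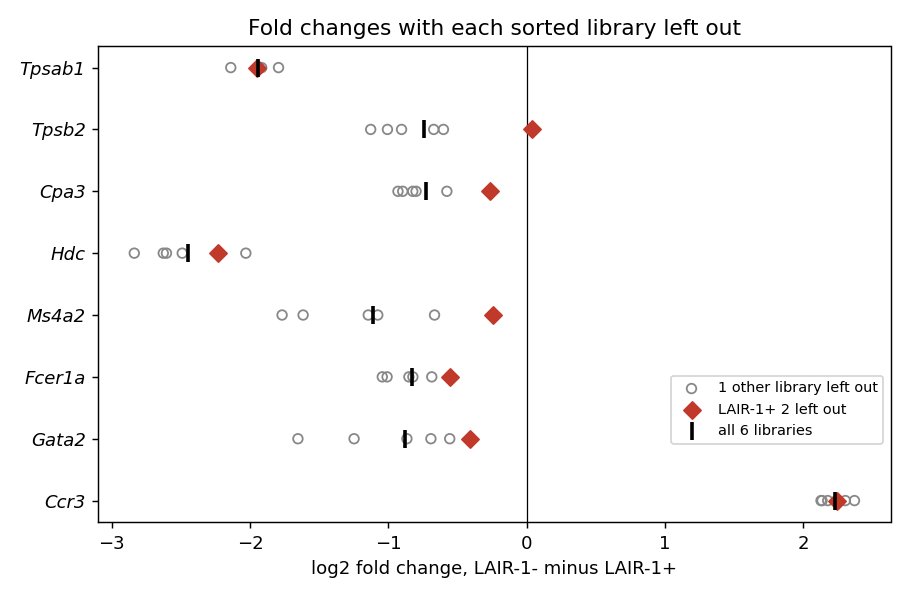
The horizontal axis is the log2 fold change of LAIR-1- over LAIR-1+ for each gene. Black bars are the fits with all 6 libraries, diamonds the fits without LAIR-1+ 2 and open circles the fits without 1 other library. Tpsab1 and Ccr3 stay close to -1.94 and 2.23, whereas the diamond of Tpsb2 lies at 0.040 and those of Cpa3, Ms4a2, Fcer1a and Gata2 lie nearer to 0 than any of their circles. LAIR-1+ 2 was singled out as the highest library of these genes and of Hdc, so the direction of their diamonds follows from that choice.

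Whether the genes kept fixed proportions was read from their counts relative to Cpa3 in the 6 sorted libraries. Fcer1a kept closest to Cpa3, with a ratio that spanned 1.58-fold between its lowest and highest library, followed by Tpsb2 at 2.16-fold and Gata2 at 2.72-fold. Tpsab1 spanned 3.97-fold, Ms4a2 11.1-fold, Hdc 13.6-fold and Ccr3 16.2-fold. The lowest libraries of Ms4a2 and Hdc held 2 and 3 counts. Outside the set, the ratio of Mcpt1 spanned 2.20-fold, Cma1 2.75-fold, Mcpt2 7.90-fold and Mcpt4 11.2-fold. Cpa3 itself ranged from 15.6 to 52.1 CPM, so a gene with an even level would also vary against it. The level in LAIR-1+ 2 was also set against the mean of LAIR-1+ 1 and 3. It was 3.19-fold higher for Tpsb2, 3.39-fold for Ms4a2, 2.16-fold for Gata2, 2.13-fold for Cpa3, 1.64-fold for Fcer1a and 1.49-fold for Hdc. The ratio was 0.987 for Tpsab1 and 1.05 for Ccr3, beside a median of 0.996 over all tested genes. For the genes whose highest library is LAIR-1+ 2, a ratio above 1 was fixed by the reason that library was singled out.

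The genes whose profile over the 6 sorted libraries was most like that of Tpsab1 were found by the root mean square (RMS) difference of log2 CPM, each gene centred on its own mean. They were Hs6st2 (0.249), Akr1c18 (0.269), B3galt5 (0.272), Sh3bgrl2 (0.282) and Mgst1 (0.301), and none is a gene of the mast cell lists. Some were low: B3galt5 was at 0.158, 0.157 and 0.139 CPM in LAIR-1- 7, 8 and 10, where 3 counts give 0.158, 0.157 and 0.104 CPM. Mgst1 was at 0.315, 0.420 and 0.487 CPM there. The log2 CPM used a prior count of 2, which shrinks the differences of such low genes. Sh3bgrl2, the most abundant of the 5, was at 109, 100.03 and 109 CPM in LAIR-1+ 1, 2 and 3 and at 42.9, 30.3 and 46.1 CPM in LAIR-1- 7, 8 and 10. Within the set, the closest to Tpsab1 was Hdc, with a difference of 0.592 and rank 169 among 14260 other genes. Fcer1a followed at 0.658 (rank 283), Cpa3 at 0.768 (rank 635), Gata2 at 0.833 (rank 1096), Tpsb2 at 0.990 (rank 5255), Ms4a2 at 1.28 (rank 12922) and Ccr3 at 2.10 (rank 14207). These distances are descriptions over 6 libraries that share the same sort.

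The wider mast cell programme was examined with lists of genes outside the set, against a median of 0.0054 on the log2 scale over all tested genes. Their counts stand beside edgeR calls of 4.01% of all tested genes, 2.71% lower and 1.3% higher, and beside 856 genes called by DESeq2 and 671 by limma-voom of 14261. Of 9 listed granule proteases and storage genes 8 were tested and none passed in edgeR, with 2 at an unadjusted p under 0.05 (15.4% of all tested genes) and 1 called by each of DESeq2 and limma-voom. Cma1, the chymase mMCP-5, was at 9.13, 32.8 and 13.1 CPM in LAIR-1+ 1, 2 and 3 and at 16.9 ± 0.152 CPM in LAIR-1- cells, so that LAIR-1+ 1 and 3 were below the LAIR-1- mean and LAIR-1+ 2 above it. Its log2 fold change was -0.13 ± 0.35. Mcpt4, another chymase, was at 3.14 ± 0.584 against 0.925 ± 0.534 CPM (-1.74 ± 0.45, edgeR adjusted p = 0.0538). Mcpt2 differed by -1.46 ± 0.52 (edgeR adjusted p = 0.18) and Mcpt1 by -0.75 ± 0.38 (edgeR adjusted p = 0.388). Of the 8 tested genes of this list 5 lay below 0 on the log2 scale and 3 above. Srgn, the serglycin that binds proteases in granules of many leukocytes, differed by 0.03 ± 0.08.

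Of 8 listed mast cell identity genes 6 were tested and Cd63, a tetraspanin of granule and lysosome membranes in many cells, was lower in LAIR-1- cells (18.5 ± 3.92 against 8.15 ± 0.723 CPM, log2 fold change -1.19 ± 0.18, edgeR adjusted p = 0.0026). Kit, the stem cell factor receptor, was at 97.7 ± 15.7 against 74.3 ± 21.4 CPM (adjusted p = 0.33), and ILC2s can carry it too. The connective tissue mast cell receptors Mrgprb1 and Mrgprb2 were not listed. DESeq2 and limma-voom each called 1 gene of the list, whose median was -0.69. Of its 6 tested genes 5 lay below 0 on the log2 scale and 1 above.

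In IgE receptor signalling 12 genes were tested and 3 were lower in LAIR-1- cells, against 2.71% of all tested genes; DESeq2 and limma-voom also called 3 each. These were the kinase Lyn (104 ± 6.71 against 68.8 ± 6.95 CPM, log2 fold change -0.60 ± 0.09, edgeR adjusted p = 0.00348) and the adaptors Lat (-0.67 ± 0.10, adjusted p = 0.0032) and Lcp2 (-0.43 ± 0.06, adjusted p = 0.00259). All 3 held with any 1 library left out, and all 3 also act downstream of other lymphocyte receptors. The median of the list was -0.29. Of 7 listed lipid mediator genes 6 were tested and 2 were lower (3 called by DESeq2, 2 by limma-voom), Alox5ap, which helps 5-lipoxygenase start leukotriene synthesis (-1.16 ± 0.22, adjusted p = 0.0112), and Hpgds, a prostaglandin D synthase (-0.56 ± 0.12, adjusted p = 0.027). The call of Alox5ap ended when LAIR-1+ 1 (adjusted p = 0.064) or LAIR-1- 7 (0.0541) was left out. Hpgds lost its call at an adjusted p of 0.1, 0.105, 0.122 and 0.0556 with library 1, 2, 7 or 8 left out.

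**Figure D3:**
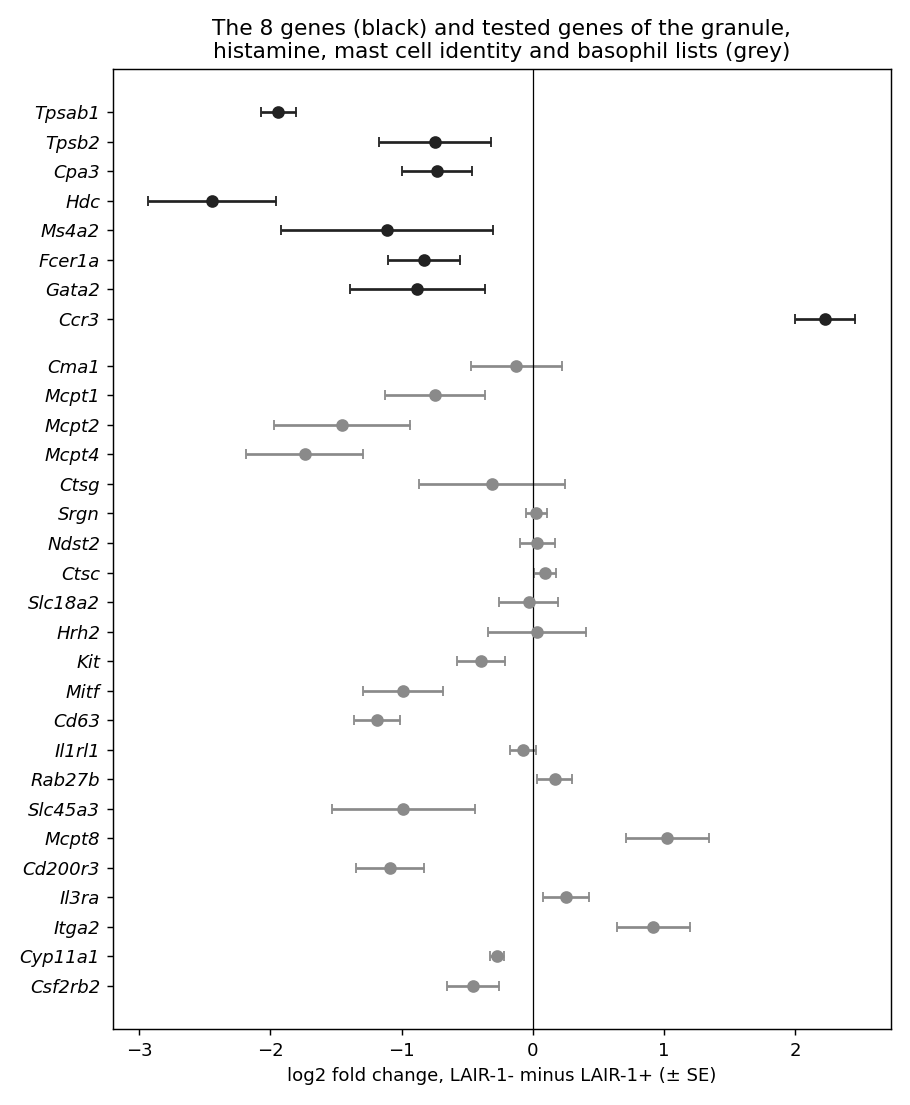
The horizontal axis is the log2 fold change of LAIR-1- over LAIR-1+ with its SE. Black points are the 8 genes and grey points, from the top, are the tested genes of the granule, histamine, mast cell identity and basophil lists. The grey points lie on both sides of 0, from Mcpt4 at -1.74 and Mcpt2 at -1.46 to Mcpt8 at 1.02, with Cma1 at -0.13 and Slc18a2 at -0.03. In the granule list 5 points lie below 0 and 3 above, and in the mast cell identity list 5 and 1. The basophil list has 3 and 3 and the histamine list 1 and 1.

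Basophils carry FcεRI, Gata2 and Ccr3 as well. Of 6 listed basophil markers, all tested, 2 passed, both lower in LAIR-1- cells, against 2.71% of all tested genes (4 called by DESeq2, 2 by limma-voom): Cd200r3, an activating receptor (-1.09 ± 0.26, edgeR adjusted p = 0.0394), and Cyp11a1, a steroid-making enzyme that type 2 lymphocytes also express (-0.27 ± 0.05, adjusted p = 0.0151). Cd200r3 was at 4.94 CPM in LAIR-1+ and 2.32 CPM in LAIR-1- cells, whereas Cyp11a1 was at 2035 and 1685 CPM. With 1 library left out the log2 fold changes stayed between -1.22 and -0.96 for Cd200r3 and between -0.29 and -0.25 for Cyp11a1, but both calls could end: Cd200r3 had an adjusted p of 0.125, 0.165, 0.061, 0.108 and 0.11 with library 1, 2, 7, 8 or 10 left out, and Cyp11a1 of 0.0817 and 0.102 with library 1 or 7 left out. The basophil protease Mcpt8 was at 2.69 ± 0.883 CPM in LAIR-1+ and 5.47 ± 1.70 CPM in LAIR-1- cells (1.02 ± 0.32, adjusted p = 0.116), and Prss34, another basophil protease, was not listed.

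Summed markers of some other cells were also higher in the LAIR-1+ libraries. The eosinophil granule genes Epx, Prg2 and Prg3 were not listed, and 4 listed eosinophil markers summed to 2.13 to 3.06 CPM in LAIR-1+ and 0 to 1.89 CPM in LAIR-1- libraries, with 2 tested and none passing in edgeR (0 at an unadjusted p under 0.05, 0 by DESeq2 or limma-voom). Of 9 listed neutrophil markers, which summed to 5.66 to 10.2 CPM against 0.21 to 1.37 CPM, 2 were tested and Mmp8, a collagenase, was lower in LAIR-1- cells (-4.01 ± 0.86, edgeR adjusted p = 0.0215). DESeq2 called none of this list and limma-voom 1. S100a8 was at 0.804, 0.556 and 0.0775 CPM and S100a9 at 1.32, 1.27 and 0 CPM in LAIR-1+ 1, 2 and 3. Both were at 0 in all LAIR-1- libraries, and neither passed the filter on low counts. Mmp8 was at 5.39, 1.59 and 4.69 CPM in LAIR-1+ 1, 2 and 3 and at 0.736, 0 and 0.035 CPM in LAIR-1- 7, 8 and 10. Its fitted log2 fold change was -7.22 without LAIR-1- 7 and -4.38 to -3.38 without any 1 other library. Mmp8 lost its call at an adjusted p of 0.0984, 0.0555, 0.0531 and 0.0756 with library 1, 3, 8 or 10 left out.

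The 7 listed macrophage and dendritic cell markers summed to 63.7, 98.2 and 169 CPM in LAIR-1+ 1, 2 and 3 and to 17.4, 36.6 and 6.30 CPM in LAIR-1- 7, 8 and 10. Chil3 alone was at 31.8, 70.1 and 128 CPM and at 6.57, 27.8 and 0 CPM in the same libraries. It did not pass in edgeR (adjusted p = 0.121). Of 5 tested, Lyz2, the lysozyme of myeloid cells, was lower in LAIR-1- cells (-3.77 ± 0.64, edgeR adjusted p = 0.00627), and C1qa and C1qb were not listed. DESeq2 called none of the 5, where a gene without an adjusted p counts as not called, and limma-voom called 1. The 8 listed lung epithelial markers summed to 29.2, 107 and 57.5 CPM in LAIR-1+ 1, 2 and 3, and to 26.3 to 33.7 CPM in LAIR-1- libraries. Epcam, which was higher in LAIR-1- cells, made up most of the LAIR-1- sums. It was at 28.6, 24.0 and 31.6 CPM in LAIR-1- 7, 8 and 10 and at 20.7, 18.8 and 19.9 CPM in LAIR-1+ 1, 2 and 3. LAIR-1+ 2 had the highest epithelial sum. Scgb1a1, the club cell secretoglobin, was at 3.12, 76.7 and 28.9 CPM in LAIR-1+ libraries and 0 in all LAIR-1- libraries, where a count of 0 allows 0.104 to 0.158 CPM per library.

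Of 5 tested epithelial markers Scgb1a1, Krt18 (-1.87 ± 0.35) and Cdh1 (-3.05 ± 0.62) were lower and Epcam (0.51 ± 0.13) was higher in LAIR-1- cells, with edgeR adjusted p of 0.00666, 0.00954, 0.0162 and 0.0461 (4 called by DESeq2, 2 by limma-voom). The call of Krt18 ended at an adjusted p of 0.0563 with library 2 left out, that of Cdh1 at 0.0833, 0.0563, 0.063 and 0.0758 with library 2, 3, 7 or 10 left out, and that of Epcam at 0.122, 0.161, 0.0949, 0.136 and 0.165 with library 1, 2, 3, 7 or 10 left out. The 6 listed T and B cell markers summed to 10.2 to 16.1 CPM over all sorted libraries, and of 2 tested neither passed in edgeR (0 at an unadjusted p under 0.05, 0 by DESeq2 or limma-voom). Of the ILC2 markers Klrg1, Il2ra and Icos (0.57 ± 0.08, 0.43 ± 0.09 and 0.31 ± 0.06) were higher and Arg1 (-0.28 ± 0.06) was lower, with edgeR adjusted p of 0.00153, 0.0187, 0.0175 and 0.027 (5 called by DESeq2, 5 by limma-voom, of 13 tested). Klrg1 was called in 6 of 6 fits with a library left out. The others were not called at an adjusted p of 0.0936, 0.0615, 0.0566 and 0.061 with library 1, 3, 7 or 10 left out for Il2ra, 0.0881, 0.0573 and 0.101 with library 1, 3 or 7 left out for Icos and 0.0835, 0.0946, 0.0783, 0.0981 and 0.0895 with library 1, 2, 3, 7 or 10 left out for Arg1. The part of other cells in the levels of the 8 genes was not tested.

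**Figure D4:**
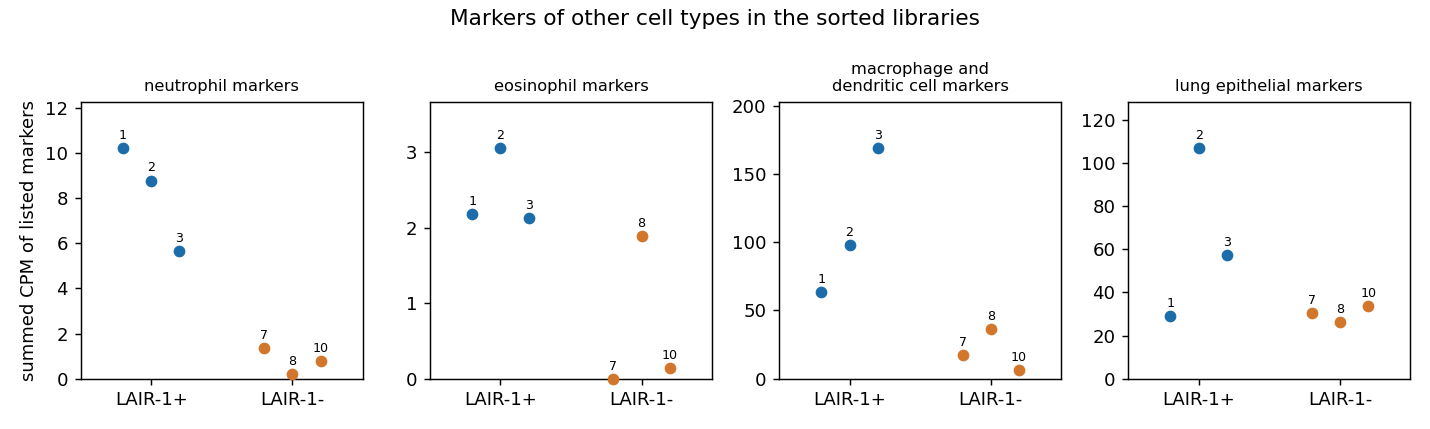
Each panel plots the summed CPM of the listed markers of 1 other cell type (vertical axis, from 0) in each sorted library, numbered as in the labels. Neutrophil, eosinophil and macrophage sums are higher in all 3 LAIR-1+ than in all LAIR-1- libraries, and the epithelial sum is highest, at 107 CPM, in LAIR-1+ 2. Most of the epithelial sum in LAIR-1- libraries is Epcam, which is higher there than in LAIR-1+ libraries.

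The knockout comparison asked how ILC2s without LAIR-1 differ from WT ILC2s. The 8 genes were chosen around a difference between the sorted fractions, with earlier results of these data known. Of the 4 listed genes, Tpsab1, Cpa3 and Hdc were scattered over a few libraries with no shared pattern, while Ccr3 had counts in every library but WT 9. Tpsab1 had 142 and 56 counts in KO 13 and KO 14 and 0 in the library labelled KO 15 and in WT 9, 10 and 11. Cpa3 had 12 counts in WT 11, 76 in KO 14 and 0 elsewhere. Hdc had 90 counts in WT 9, 13 in WT 11 and 0 elsewhere. The library with the highest count was therefore KO 13 for Tpsab1, KO 14 for Cpa3 and WT 9 for Hdc. A count of 0 allows 3 counts, or 0.142 to 0.166 CPM per library, and covers counting error only.

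Tpsab1, Cpa3 and Hdc did not pass the filter on low counts in this table. In edgeR without that filter their adjusted p-values were 0.636, 0.864 and 0.645 (unadjusted 0.0267, 0.367 and 0.0348). Ccr3 was the gene of the set that could be tested with it. It was at 0, 3.70 and 1.45 CPM in WT 9, 10 and 11 and at 1.66, 10.5 and 3.86 CPM in KO 13, 14 and 15. The groups overlapped, with the highest level in KO 14 and a count of 0 in WT 9. The means were 1.72 ± 1.86 and 5.35 ± 4.62 CPM (SD, n = 3), and the log2 fold change of 1.64 ± 1.48 did not pass in edgeR (adjusted p = 0.846, with a range of 0.468 to 0.998 over the alternatives). Over all genes 1 of 14164 passed in edgeR, 0.00706%, against 308 in DESeq2, 2 in limma-voom and 266 of 15108 with all 12 libraries in 1 edgeR fit. The common biological coefficient of variation was 0.505, against 0.135 in the sorted libraries.

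**Figure D5:**
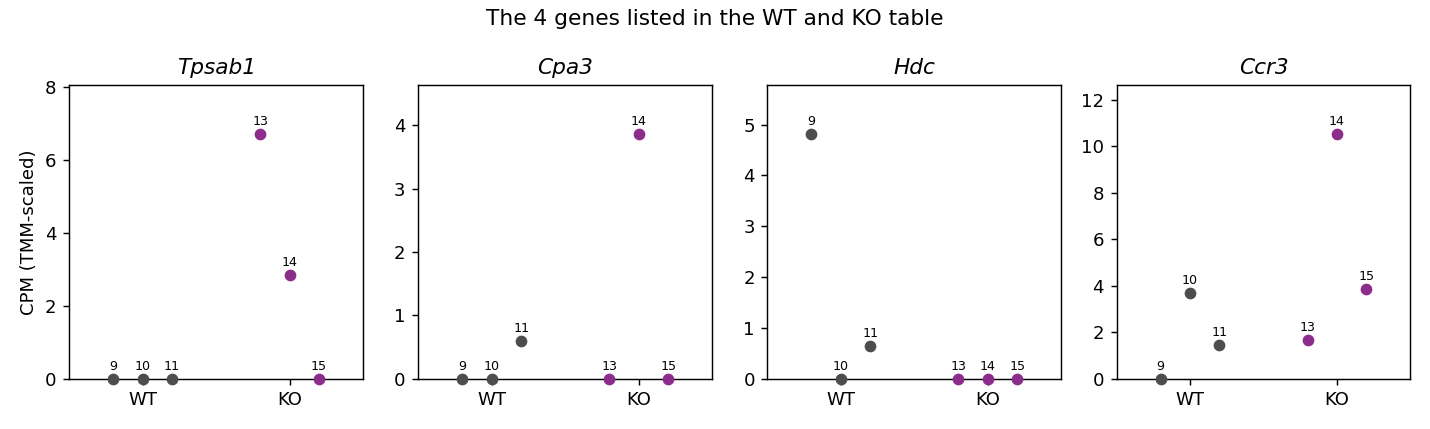
Each panel plots 1 of the 4 genes listed in the WT and KO table in CPM after TMM scaling (vertical axis, from 0) for each library, numbered as in the labels. No gene separates WT from KO, and the highest points belong to KO 13 for Tpsab1, KO 14 for Cpa3 and Ccr3, and WT 9 for Hdc.

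Of the genes of the same lists outside the set, 59 were tested between KO and WT, each counted once, and none passed in edgeR, with 14 at an unadjusted p under 0.05 (8.37% of all tested genes), 7 called by DESeq2 and 0 by limma-voom. DESeq2's 7 stand beside its 308 of all 14164 genes. By list, the ILC2 markers held 6 at an unadjusted p under 0.05 and 4 called by DESeq2, and the lung epithelial markers 1 and 1. The mast cell identity list held 1 and 1, IgE receptor signalling 1 and 0, and lipid mediator synthesis 2 and 0. GATA2 partners and CCR3-related genes held 2 and 1 each, and the granule and basophil lists 0 and 0. Gata3 stands in 2 of these lists. The granule proteases Cma1, Mcpt1, Mcpt2, Mcpt4 and Ctsg were not listed, and the 3 listed genes of that list, Srgn, Ndst2 and Ctsc, are not particular to mast cells. Kit was at 343, 302 and 367 CPM in WT 9, 10 and 11 and at 199.98, 197 and 206 CPM in KO 13, 14 and 15. All KO libraries were below all WT libraries, and the log2 fold change of -0.75 ± 0.09 had an edgeR adjusted p of 0.15. Cd63, lower in LAIR-1- cells, differed by -0.66 ± 0.36 between KO and WT (adjusted p = 0.695). Near the tryptase genes, Gm5430 did not pass (-0.88 ± 0.66, edgeR adjusted p = 0.799). Levels in the WT libraries of one table and the WT fractions of the other come from separate tables and were not compared.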

How the data were processed

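From RNA-seq of 12 mouse libraries the authors deposited estimated counts per gene, not whole (within 0.001) for 44.4% or more of values, and CPM, each in 1 table for WT and KO and 1 for the sorted cells. Per the submitters' processing notes, bcl2fastq 2.17.1.14, STAR 2.5.3a, Partek and the mm10 build were used; for the counter, annotation and strand setting, the sources used here give nothing. The CPM the authors deposited divide by a library total of which 86.9% or more is listed in the WT and KO table. That table lists no gene with a summed count under 10, so an unlisted gene can have had a few counts; 20 symbols of the sorted table had become dates, none of them a gene described here.

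Counts were rounded. The main test was edgeR 4.0.16 (R 4.3.3): filterByExpr, TMM scaling, quasi-likelihood F test, Benjamini-Hochberg adjustment over all tested genes and a threshold of 0.05, separately in each table, without covariates. All 8 genes are named; of each list the genes that passed are named, up to 5, and of the listed genes within 100 kb of the tryptase genes all, except 2 genes that are not reported here. The genes and lists were chosen with earlier results of these data known. Alternatives were DESeq2 1.42.0, limma 3.58.1 (voom with sample weights, and trend on log2 of the deposited CPM plus 1 or 0.1), other scalings and filters, unrounded counts, all libraries in 1 fit and leaving out each library. In the counts of list genes called, a gene to which DESeq2 gave no adjusted p counts as not called. The scripts were tested on simulated counts with 200 genes changed.

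The tryptase genes were planned to be added because they were taken to be near-identical; their sequences shared no window of 50 bases. In the WT and KO table Tpsb2 is not listed and Tpsab1 alone did not pass the filter, so no sum was tested there. Positions are those of the deposited tables (mm10), 1-based. Promoters are from RefSeq and transcripts from GENCODE M21.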

Additional observations from a re-analysis of the deposited data

How the results depend on the processing

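The sorted count of called genes draws on the values that chose the set, so the following is a description that supports nothing. The count of 3 (Tpsab1, Hdc and Ccr3) was 3 with other scalings, without a filter, with unrounded counts and in DESeq2, limma-voom and limma-trend. It was 2 with a mean of at least 5 CPM, which left 5 of the 8 genes to test and removed Hdc, and 2 to 3 with 1 library left out, the 2 being without LAIR-1+ 2. With all 12 libraries in 1 fit it was 0, where 4 of the 8 genes are listed in both tables and 54 of 15108 genes were called; that fit shares its spread with the more variable WT and KO libraries. With 1 library left out, the log2 fold change of Tpsb2 ranged from -1.13 to 0.040 and was reversed at 0.040 without LAIR-1+ 2, its highest library. The cause was not tested. On log2 of the deposited CPM plus 1, Hdc was at -1.39 and Ccr3 at 1.75, since the pseudocount shrinks changes of low genes. The tryptase sum stayed between -2.04 and -1.69 with 1 library left out. Between KO and WT, 1 gene of all was called in edgeR, 308 in DESeq2 and 266 with all 12 libraries in 1 fit, and 0 of the set were called under every alternative run (0 to 0 with 1 library left out); a mean of at least 5 CPM left no gene of the set to test, and DESeq2 gave Ccr3 no adjusted p. Depth limits the low genes: the lowest sorted library held 2 counts of Ms4a2, 3 of Hdc, 19 of Gata2 and 36 of Ccr3. No paired analysis was run because the labels' numbers are shared by no libraries of the groups compared. Whether LAIR-1+ and LAIR-1- libraries came from the same mice or pools is not stated. The fits treat them as unpaired and would ignore such a match.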
